A study of Mus musculus with 8 samples.

Results

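CC chemokines are small secreted proteins that draw leukocytes along a gradient by binding seven-pass receptors, and macrophages are one of their main sources in inflamed tissue. The 8 genes described here, Ccl2, Ccl3, Ccl4, Ccl6, Ccl7, Ccl9, Ccl12 and Ccl22, were taken by symbol from the array's probe annotation. They are 8 of 16593 gene symbols in it and had 10 of the array's 25697 probes, 2 each for Ccl4 and Ccl12 and 1 for each of the others. Of the 8 genes, 7 lay above the background floor and entered the test among 9227 features, all 7 of them on all 8 arrays. Ccl22 did not.

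Macrophages were grown from the bone marrow of C57BL/6 mice in medium with 30% L929-cell supernatant, which supplies the growth factor M-CSF, and were replated on day 7 in 15% of it. On day 8 they were given red blood cells of sheep carrying mouse IgG2a (10 per macrophage), interferon gamma (IFNγ) at 10 ng/ml, or both, each for 6 h, or were left unstimulated. The coated red cells (opsonised cells below) are bound and swallowed through Fcγ receptors. The study asked how macrophages respond when IFNγ and IgG receptors are engaged together. No group received uncoated red cells, so effects of the IgG coat and of the red cells themselves cannot be told apart. Each of the 4 groups had 2 arrays, Illumina MouseRef-8 BeadChips on which beads carry 1 probe sequence each, and all groups share the strain, the growth medium and the replating. The labels do not say whether the 2 samples of a group are separate animals or cultures. The p-values and SEs therefore describe only how far these samples spread, and that spread may be technical. For each gene the fit draws the spread toward that of other features, so an SE can be smaller than the gene's own arrays would give.

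Of the members, Ccl2, Ccl7 and Ccl12 encode monocyte chemoattractants that act through the receptor CCR2, which monocytes need to leave the bone marrow. Ccl12 occurs in mice. Ccl3 and Ccl4 encode macrophage inflammatory proteins that attract monocytes, T cells and NK cells, and their transcripts are known as rapid targets of NF-κB. Ccl6 and Ccl9 encode ligands of the receptor CCR1 that mouse myeloid cells make without stimulation, and Ccl22 encodes a ligand of CCR4 typical of dendritic cells and alternatively activated macrophages.

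By RefSeq's gene order in GRCm38.p6, 7 of the 8 members lie on chromosome 11, in a pair of runs. Ccl2, Ccl7, Ccl11, Ccl12, Ccl8 and Ccl1 follow each other directly. After 25 other protein-coding genes come Ccl5, Ccl9, Ccl6, Ccl3 and Ccl4. Ccl22 lies on chromosome 8. A promoter sequence was found in the RefSeq table for 5 members. Ccl2, Ccl4 and Ccl7 had none there. The 250 bases before the start of Ccl12, Ccl3 and Ccl9 are shown because IFNγ changed these genes in opposite directions (below). They run 5′ to 3′ on the gene's strand, and capitals mark every match to the motifs searched.
Ccl12 (GRCm38.p6 chr11:82101595-82101844, + strand): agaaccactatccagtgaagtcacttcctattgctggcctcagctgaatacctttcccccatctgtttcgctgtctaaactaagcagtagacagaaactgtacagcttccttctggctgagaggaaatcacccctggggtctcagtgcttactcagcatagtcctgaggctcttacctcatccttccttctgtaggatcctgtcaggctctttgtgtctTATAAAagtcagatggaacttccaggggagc
Ccl3 (GRCm38.p6 chr11:83649379-83649628, - strand): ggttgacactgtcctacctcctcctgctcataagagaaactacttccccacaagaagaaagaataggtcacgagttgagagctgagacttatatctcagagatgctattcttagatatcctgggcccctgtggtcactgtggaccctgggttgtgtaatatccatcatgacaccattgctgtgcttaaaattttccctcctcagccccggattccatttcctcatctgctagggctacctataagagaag
Ccl9 (GRCm38.p6 chr11:83578637-83578886, - strand): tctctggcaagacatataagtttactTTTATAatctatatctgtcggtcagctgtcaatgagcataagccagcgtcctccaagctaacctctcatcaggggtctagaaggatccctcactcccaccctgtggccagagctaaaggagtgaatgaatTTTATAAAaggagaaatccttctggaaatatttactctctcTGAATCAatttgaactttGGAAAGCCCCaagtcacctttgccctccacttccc
Both strands were searched for an interferon-stimulated response element, for the NF-κB consensus, for TGANTCA and for TATAAA, the TATA box. TGANTCA is a loose form of the AP-1 site that allows any middle base. Of 32851 promoter windows of this length, counted without those of a left-out chromosome, 2.98%, 3.9%, 6.75% and 12.4% held them. The Ccl12 window held only a TATA box, beginning 31 bases before the start. The Ccl3 window held none of the 4, as did those of Ccl6 and Ccl22. The Ccl9 window held TATAAA in either orientation at 3 places, 2 of them overlapping. It also held a match to the loose AP-1 form (TGAATCA) and an NF-κB match (GGAAAGCCCC, on the reverse strand). A missing match says only that these letters are not in this window.

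**Figure D1:**
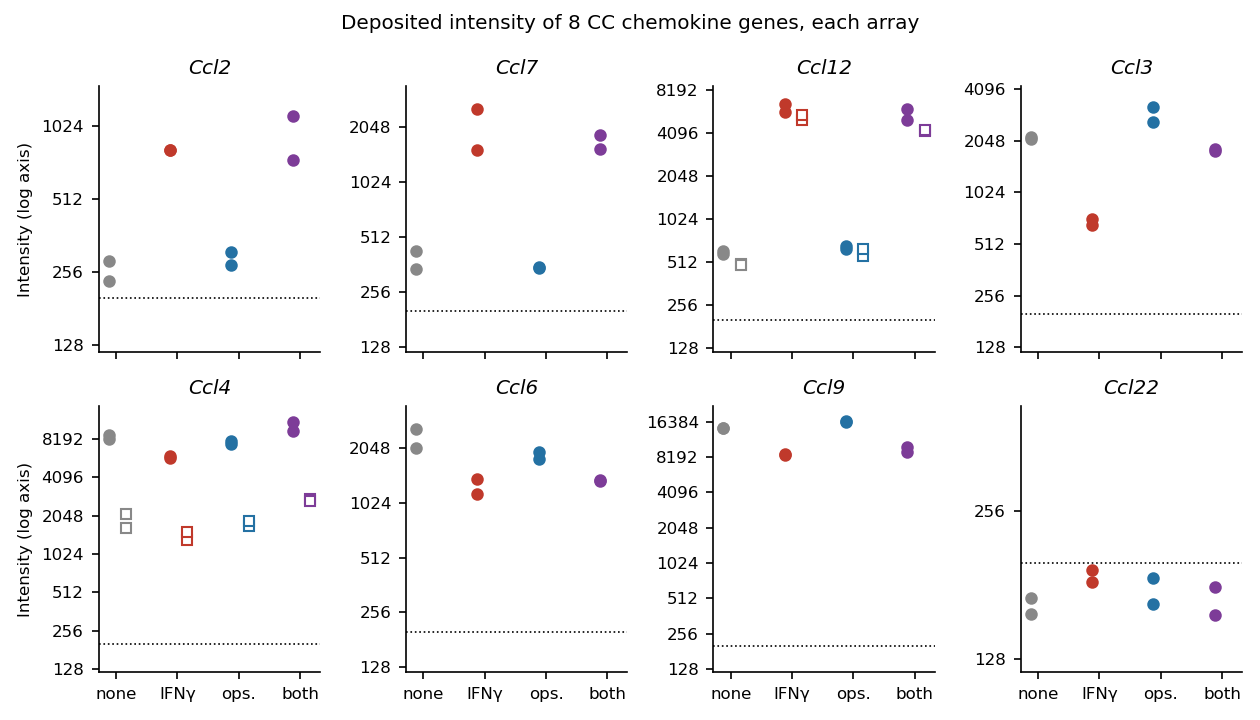
Deposited intensity (log axis) of the 8 genes on each array, by group: none (unstimulated), IFNγ, ops. (opsonised cells) and both, with 2 arrays per group. Filled circles are the brighter probe, open squares a second probe, and the dotted line is the background floor of 201.1. Ccl2, Ccl7 and Ccl12 were high in both groups with IFNγ, and Ccl6 and Ccl9 were low in both. Ccl3 and Ccl4 were lowest with IFNγ alone, and Ccl22 stayed under the floor.

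The arrays held as a whole what the label says. All 8 macrophage markers with a probe, such as Adgre1 and Lyz2, passed the filter on dim probes, whereas 0 of 7 erythroid markers did. The summed intensity of the macrophage markers was 51670 to 52658 unstimulated, 45635 to 47268 with IFNγ, 46526 to 48013 after opsonised cells and 45475 to 45599 with both, and its part in the results was not tested. For dendritic cells 2 of 9 markers passed, for B cells 2 of 7, for T and NK cells 1 of 10 and for fibroblasts 1 of 8. Neutrophil and mast cell markers are given beside the results they move with. With IFNγ 1 of the 8 macrophage markers was called higher (Fcgr1) and 2 lower (Cd14 and Mrc1) (limma, adjusted p under 0.05). Opsonised cells gave 0 higher and 3 lower, and both stimuli gave 2 and 2. The shares of all features called higher and lower were 9.6% and 12.5%, 6.11% and 6.24%, and 14.8% and 20.9%. Adgre1, Itgam, Lyz2 and Marco had no call in these comparisons. Within a group the correlation of arrays was 0.992 to 0.994, and the number of arrays limits the precision. In such bulk samples, fewer cells that make a transcript and less of it per cell cannot be told apart.

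IFNγ alone split the family. The 3 monocyte chemoattractant genes rose, and Ccl3, Ccl4, Ccl6 and Ccl9 fell, so that all 7 tested members passed the test (limma, adjusted p under 0.05 over all features). Over all 9227 features 9.6% were called higher and 12.5% lower. The median log2 change was -0.53 over the 7 members and -0.04 over all features.

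Ccl12 had intensities of 617 and 584 on the unstimulated arrays, 5733 and 6582 with IFNγ, 666 and 631 with opsonised cells, and 5099 and 6051 with both. Both groups with IFNγ lay far above both without it. The rise with IFNγ was 10.2-fold (log2 change 3.35 ± 0.12 SE, 2 arrays per group, adjusted p = 6.92e-17), and its second probe gave 3.42 ± 0.11. Ccl7 was at 432 and 341 unstimulated, 1527 and 2580 with IFNγ, 348 and 351 with opsonised cells, and 1546 and 1850 with both. Its IFNγ arrays lay far apart, yet both were above every array without IFNγ. It rose 5.18-fold with IFNγ (2.37 ± 0.17, adjusted p = 1.13e-10). Ccl2 was at 284 and 236 unstimulated, 816 and 817 with IFNγ, 309 and 274 with opsonised cells, and 741 and 1123 with both. It rose 3.16-fold (1.66 ± 0.15, adjusted p = 8.88e-09). The background was not subtracted from these intensities, so the fold of a dim gene such as Ccl2 is understated and the sizes cannot be ranked between genes. With a model-based background correction the log2 change of Ccl2 was 2.08 in place of 1.66.

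Opsonised cells did not pass the test for any of these 3 genes, with or without IFNγ. On their own they changed Ccl2 by 0.17 (95% interval of the log2 change -0.15 to 0.48), Ccl7 by -0.13 (-0.49 to 0.22) and Ccl12 by 0.11 (-0.13 to 0.35). Added to IFNγ they changed Ccl2 by 0.16 (-0.16 to 0.48), Ccl7 by -0.23 (-0.58 to 0.12) and Ccl12 by -0.15 (-0.38 to 0.09). These intervals come from the fit and are not adjusted over genes. The second Ccl12 probe also had no call, in the limma fit over all probes, but its arrays did not overlap in either comparison. It gave 0.29 ± 0.11 with opsonised cells alone (adjusted p = 0.104). Adding them to IFNγ gave -0.31 ± 0.11 on this probe (adjusted p = 0.0672). In the order of levels, the pair of groups with IFNγ did not differ from each other by the test, nor did the pair without it, while each group with IFNγ lay above each group without it on every array. For Ccl7 the change on adding opsonised cells to IFNγ rested on the spread of the IFNγ arrays: without IFNg replicate 1 it was -0.61 (adjusted p = 0.022), and over all members and left-out arrays it was the only such change that gained a call. In the presence of opsonised cells IFNγ raised Ccl12 by 3.10 ± 0.12, Ccl7 by 2.27 ± 0.17 and Ccl2 by 1.65 ± 0.15 on the log2 scale (adjusted p = 3.68e-16, 2.34e-10 and 9.29e-09).

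The mast cell and basophil list moved with IFNγ as well, through 1 gene. Of its 9 markers 3 passed the floor, and Hdc, which encodes histidine decarboxylase, was at 179 and 180 unstimulated and at 432 and 455 with IFNγ. Hdc passed the filter only through the groups with IFNγ, so no size is given for its change. Cpa3 and Cma1, the others that passed, had no call in any comparison. The summed intensity of the list was 1582 to 1588 unstimulated, 1850 to 1905 with IFNγ, 1597 to 1626 with opsonised cells and 1891 to 1980 with both. Mcpt8, Mcpt4, Ms4a2, Fcer1a, Tpsb2 and Gata2 were under the floor on all 8 arrays. The part of such cells in the rise of the monocyte chemoattractant genes was not tested.

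Ccl3 and Ccl4 fell with IFNγ and rose when opsonised cells were added to it. The intensities of Ccl3 were 2161 and 2097 unstimulated, 718 and 660 with IFNγ, 3204 and 2648 with opsonised cells, and 1835 and 1794 with both. The 4 groups did not overlap: opsonised cells stood highest, then unstimulated cells, then both stimuli, and IFNγ alone lowest. IFNγ lowered it 3.09-fold (-1.63 ± 0.11, adjusted p = 7.7e-11). Opsonised cells alone raised it 1.37-fold (0.45 ± 0.11, adjusted p = 0.00905). That call was lost without unstimulated replicate 1 (0.47, adjusted p = 0.0508), without unstimulated replicate 2 (0.43, adjusted p = 0.0807) and without opsonised replicate 1 (0.31, adjusted p = 0.116).

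When opsonised cells were added to IFNγ, Ccl3 rose 2.64-fold over IFNγ alone (1.40 ± 0.11, adjusted p = 4.73e-09). With both stimuli its level was 0.23 below that of unstimulated cells on the log2 scale (change of -0.23 ± 0.11, 95% interval -0.47 to 0.01, adjusted p = 0.123), which did not pass the test, and became a call of -0.31 (adjusted p = 0.048) after centring on housekeeping genes. Against opsonised cells alone, Ccl3 with both stimuli was 1.61-fold lower (-0.68 ± 0.11, adjusted p = 5.75e-05). IFNγ thus lowered Ccl3 in either setting, by a smaller log2 amount with opsonised cells than without. The difference was the interaction of 0.95 ± 0.16 (adjusted p = 0.00115): the effect of opsonised cells on IFNγ-treated macrophages minus their effect without IFNγ, in log2 units.

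Ccl4 was at 8203 and 8804 unstimulated, 5790 and 5975 with IFNγ, 7502 and 7893 with opsonised cells, and 9495 and 11076 with both. IFNγ alone was again lowest, and both stimuli stood above all the other arrays. IFNγ lowered it 1.44-fold (-0.53 ± 0.10, adjusted p = 0.00027). Opsonised cells alone gave -0.14 (95% interval -0.35 to 0.06, adjusted p = 0.406), but added to IFNγ they raised Ccl4 1.74-fold (0.80 ± 0.10, adjusted p = 2.76e-06). The interaction was 0.95 ± 0.14 (adjusted p = 0.000228). With both stimuli Ccl4 was above opsonised cells alone (0.41 ± 0.10, adjusted p = 0.00258). Without array 2 of both stimuli that change was 0.30 (adjusted p = 0.0745).

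Against unstimulated cells, Ccl4 with both stimuli was at 0.27 ± 0.10 (adjusted p = 0.0363), a call near the threshold. It was lost after centring on housekeeping genes (0.20, adjusted p = 0.153), with no filter on dim probes (adjusted p = 0.0601) and without the intensity trend (adjusted p = 0.059). It was also lost without unstimulated replicate 1 (0.22), unstimulated replicate 2 (0.32), IFNg replicate 1 or 2 (0.27 each) and both replicate 2 (0.16). The second Ccl4 probe was at 1637 and 2109 unstimulated, 1309 and 1514 with IFNγ, 1685 and 1853 with opsonised cells, and 2785 and 2653 with both. It showed the same order of groups, with changes of -0.40 ± 0.12 with IFNγ, 0.95 ± 0.12 on adding opsonised cells to IFNγ and 0.55 ± 0.12 with both stimuli against none. Its interaction was 1.02 ± 0.17 (adjusted p = 0.000909).

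**Figure D2:**
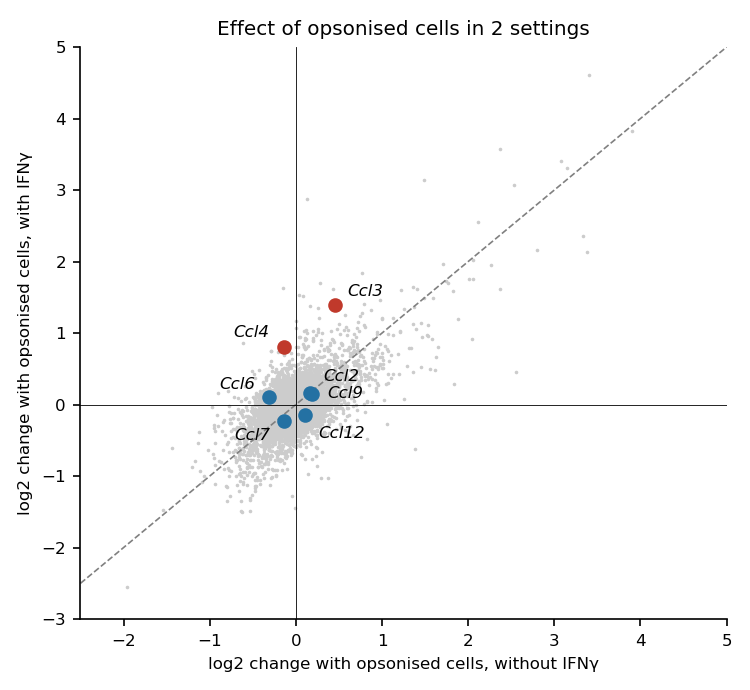
Log2 change made by opsonised cells without IFNγ (x axis, against unstimulated cells) and with IFNγ (y axis, against IFNγ alone), 2 arrays per group. Grey points are the 9227 tested features, coloured points the 7 tested members, red where the interaction passed its test, and the dashed line marks equal changes. Ccl3 and Ccl4 lie 0.95 above the line and the other 5 members near the origin.

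Among the 7 tested members the interaction passed its test for Ccl3 and Ccl4 and for 0 in the negative direction (limma; 3 positive and 0 negative at an unadjusted p under 0.05). Over all features 1.13% had a positive and 1.32% a negative interaction. Ccl6 (0.41 ± 0.18, adjusted p = 0.267), Ccl2 (-0.01 ± 0.22), Ccl7 (-0.10 ± 0.24) and Ccl9 (-0.04 ± 0.13) did not pass. For Ccl12 the probes differed: the brighter gave -0.26 ± 0.16 without a call and the second -0.59 ± 0.16 with one (adjusted p = 0.04, fitted over all probes). Its second probe was at 493 and 491 unstimulated, 5053 and 5504 with IFNγ, 567 and 634 with opsonised cells, and 4227 and 4292 under both stimuli.

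Neutrophil markers moved in part with the combination. Of 11 markers with a probe 6 passed the floor, and 3 of these (S100a8, S100a9 and Csf3r) were called higher with both stimuli than without. Csf3r was also called higher with IFNγ alone (0.38 ± 0.13, adjusted p = 0.0323), and S100a9 was lower with opsonised cells alone (-0.39 ± 0.13, adjusted p = 0.0475). On adding opsonised cells to IFNγ, only Csf3r of the 6 was called (0.38 ± 0.13, adjusted p = 0.0448). The summed intensity of the list was 4256 to 4467 unstimulated, 4423 to 4769 with IFNγ, 3730 to 4334 with opsonised cells and 5225 to 5340 with both. Mmp8 and Cxcr2 were under the floor on all 8 arrays, and Mpo, Camp and Retnlg did not pass the filter. The part of such cells in the levels of Ccl3 and Ccl4 was not tested.

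Ccl9 and Ccl6 fell with IFNγ and stayed low when opsonised cells were added. Ccl9 was at 14348 and 14600 unstimulated, 8472 and 8747 with IFNγ, 16610 and 16440 with opsonised cells, and 9061 and 10055 with both, below the highest deposited intensity of 35989 on every array. The groups with IFNγ lay below both without it. IFNγ lowered Ccl9 1.68-fold (-0.75 ± 0.09, adjusted p = 8.71e-07). Opsonised cells changed it by 0.19 ± 0.09 alone (adjusted p = 0.198) and by 0.15 ± 0.09 with IFNγ (95% interval -0.04 to 0.34). In the presence of opsonised cells IFNγ lowered it by a log2 change of -0.79 ± 0.09 (adjusted p = 3.23e-07).

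Ccl6 was at 2596 and 2046 unstimulated, 1149 and 1381 with IFNγ, 1938 and 1777 with opsonised cells, and 1340 and 1359 with both. The unstimulated arrays stood highest and the groups with IFNγ lowest, without overlap between groups with and without it. IFNγ lowered it 1.83-fold (-0.87 ± 0.12, adjusted p = 9.07e-06). Opsonised cells alone gave -0.31 ± 0.12 (adjusted p = 0.11), and without unstimulated replicate 2 this became a call of -0.48 (adjusted p = 0.0452). Added to IFNγ they gave 0.10 ± 0.12 (95% interval -0.16 to 0.36). Ccl6 with both stimuli was lower than with opsonised cells alone (-0.46 ± 0.12, adjusted p = 0.00699), a call that was lost without opsonised replicate 1 (-0.40, adjusted p = 0.0642).

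Ccl22 was at 170 and 158 unstimulated, 184 and 194 with IFNγ, 187 and 166 with opsonised cells, and 179 and 157 with both. All 8 values were under the floor of 201.1, so it has no fold change here and was not detectable above background.

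With opsonised cells alone, 1 of the 7 tested members was called higher (Ccl3) and 0 lower (limma; 2 higher and 1 lower at an unadjusted p under 0.05), and of all features 6.11% were called higher and 6.24% lower. With both stimuli against none, 4 members were higher (Ccl2, Ccl7, Ccl12 and Ccl4) and 2 lower (Ccl6 and Ccl9), against 14.8% and 20.9% of all features. Ccl2 rose 3.53-fold (1.82 ± 0.15), Ccl7 4.41-fold (2.14 ± 0.17) and Ccl12 9.25-fold (3.21 ± 0.12), while Ccl6 fell 1.71-fold (-0.77 ± 0.12) and Ccl9 1.52-fold (-0.60 ± 0.09). This comparison shares the unstimulated arrays with those of the single stimuli. Adding opsonised cells to IFNγ raised 2 members (Ccl3 and Ccl4) and lowered 0 (0 also at an unadjusted p under 0.05), against 6.57% and 7.62% of all features. Adding IFNγ to opsonised cells raised 4 and lowered 3, against 11.5% and 16.5%.

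**Figure D3:**
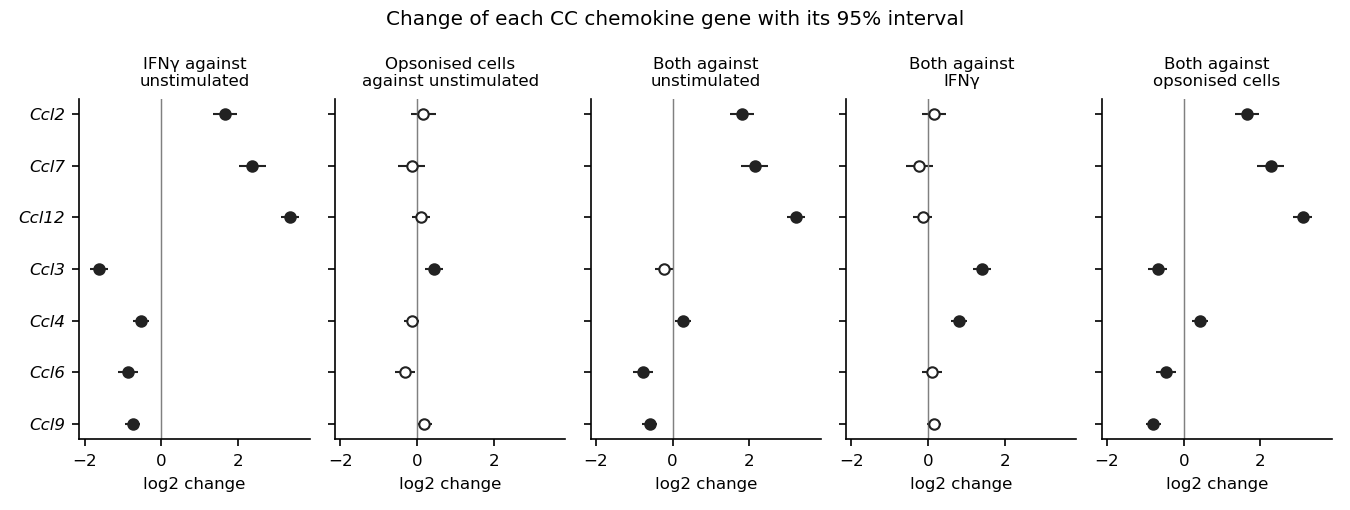
Log2 change of the 7 tested members in 5 comparisons (x axes), points with 95% intervals of the fit, 2 arrays per group. Filled points passed the test (adjusted p under 0.05) and open points did not. Opsonised cells added to IFNγ moved only Ccl3 and Ccl4 past the test, by 1.40 and 0.80.

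Set in chromosomal order, the members that rose with IFNγ lie in 1 run and those that fell in the other. Between Ccl2, Ccl7 and Ccl12 lies Ccl11, which encodes an eosinophil attractant. It was at 201 and 239 unstimulated and 216 and 208 with IFNγ, near the floor (-0.05 ± 0.10, no call). Next to Ccl12 lies Ccl8, another monocyte chemoattractant gene, at 220 and 197 unstimulated, 1965 and 2080 with IFNγ, 194 and 209 with opsonised cells, and 2467 and 2627 with both. Without IFNγ it was above the floor on 1 of 2 arrays of each group, so it passed the filter only through the groups with IFNγ, and no size is given for its change. Ccl1, at the end of the run, was under the floor on all 8 arrays. In the other run, Ccl5, which adjoins Ccl9, was at 299 and 262 unstimulated, 670 and 709 with IFNγ, 267 and 353 with opsonised cells, and 4785 and 5321 with both. It rose by 1.30 ± 0.13 with IFNγ and by 4.17 ± 0.13 with both stimuli. Opsonised cells added to IFNγ raised Ccl5 by 2.87 ± 0.13. Its interaction was 2.74 ± 0.19 (limma, adjusted p = 4.3e-09), so a positive interaction was not confined to Ccl3 and Ccl4.

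**Figure D4:**
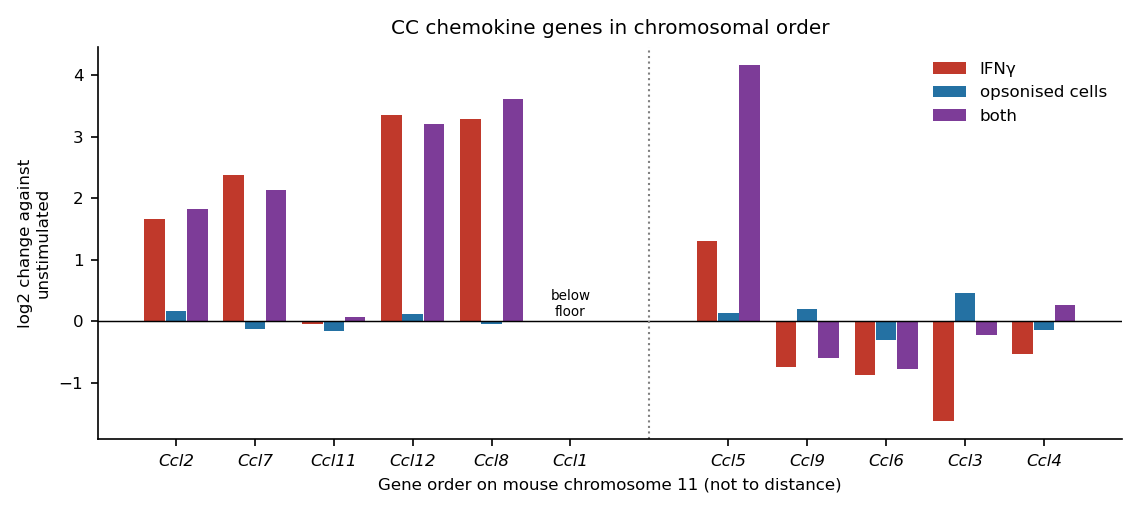
Log2 change against unstimulated cells (y axis) with IFNγ, opsonised cells and both, 2 arrays per group, for the CC chemokine genes of chromosome 11 in their order along it (x axis, not to distance), with the dotted line between the runs. Ccl2, Ccl7, Ccl12 and Ccl5 rose with IFNγ, and Ccl9, Ccl6, Ccl3 and Ccl4 fell. Ccl8 lay near the floor without IFNγ and passed the filter only through the groups with it, so its bars give no reliable size. Ccl11 passed no test and Ccl1 was below the floor.

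Of the 15 other CC ligand genes listed, all had a probe and 5 passed the floor: Ccl5, Ccl8, Ccl11, Ccl25 and Ccl27a. With IFNγ 2 were called higher (Ccl5 and Ccl8) and 0 lower, against 9.6% and 12.5% of all features. With opsonised cells 0 were called (limma, also 0 at an unadjusted p under 0.05), against 6.11% and 6.24%. With both stimuli the same pair of genes was called higher, against 14.8% of all features. Ccl8 passed the filter only through the groups with IFNγ, so its calls are not independent of that filter. The medians of the 5 were 0.00, -0.04 and 0.22, beside -0.04, -0.015 and -0.03 over all features. On adding opsonised cells to IFNγ, 1 of the 5 was called higher (Ccl5) and 0 lower, against 6.57% and 7.62% of all features. The interaction was called positive for 1 (Ccl5) and negative for 0, against 1.13% and 1.32%. In both comparisons 2 were higher or positive and 0 lower or negative at an unadjusted p under 0.05 (limma). Of 14 CC receptor genes with a probe 2 passed the floor, Ccr6 and Ccrl2. Ccrl2, which encodes a receptor-like protein that does not signal as chemokine receptors do, was at 428 and 429 unstimulated, 1045 and 993 with IFNγ, 584 and 644 with opsonised cells, and 2029 and 2026 with both. It rose in all 3 stimulated groups, by 1.25 ± 0.11, 0.52 ± 0.11 and 2.24 ± 0.11. Ccr1 and Ccr2, the receptors of several members, were under the floor on all 8 arrays.

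Several genes of NF-κB subunits and inhibitors rose with IFNγ, and more of them rose with opsonised cells or both stimuli. Of 13 tested genes 5 rose and 1 fell with IFNγ, against 9.6% and 12.5% of all features. With opsonised cells 9 rose and 0 fell, against 6.11% and 6.24%. With both 10 rose and 0 fell, against 14.8% and 20.9%. In these last 2 comparisons 0 also fell at an unadjusted p under 0.05 (limma). Nfkb2 was under the floor on both unstimulated arrays (200 and 184) and passed the filter only through the stimulated groups. Its rise was at least 1.25-fold with opsonised cells and 1.70-fold with both. The medians of the 13 genes were 0.29, 0.45 and 0.75. Over all features they were -0.04, -0.015 and -0.03. With both stimuli the inhibitor genes Nfkbie (2.68 ± 0.13) and Nfkbia (1.71 ± 0.11), the ubiquitin-editing brake Tnfaip3 (2.17 ± 0.13) and the subunit gene Relb (1.34 ± 0.12) were among those that rose. With IFNγ alone Nfkbie was at 1.27 ± 0.13, Tnfaip3 at 1.05 ± 0.13, Nfkbia at 0.96 ± 0.11 and Bcl3 at 0.82 ± 0.12. Tnip1, whose product binds that of Tnfaip3, fell (-0.48 ± 0.11). With opsonised cells alone Nfkbia was at 1.08 ± 0.11, Relb at 0.87 ± 0.12, Nfkbie at 0.80 ± 0.13 and Tnfaip3 at 0.79 ± 0.13. The interaction passed its test for 0 of the 13 (2 positive and 1 negative at an unadjusted p under 0.05). On adding opsonised cells to IFNγ, the comparison in which Ccl3 and Ccl4 rose, 9 of the 13 rose and 0 fell (11 higher and 0 lower at an unadjusted p under 0.05). Nfkbie (1.41 ± 0.13), Tnfaip3 (1.12 ± 0.13), Nfkbia (0.75 ± 0.11) and Ikbkg, which encodes the NEMO subunit of the IκB kinase (0.73 ± 0.12), were among them. The median was 0.54, beside -0.01 over all features, of which 6.57% were called higher and 7.62% lower. The activity of NF-κB was not measured, and its part in the levels of Ccl3 and Ccl4 was not tested.

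Products of the cytokine mRNA decay list bind or cut transcripts of inflammatory genes, though that of Elavl1 is known to stabilise such transcripts. Of its 6 tested genes 2 rose and 1 fell with IFNγ, 1 rose and 1 fell with opsonised cells, and 1 rose and 2 fell with both. The medians were 0.12, 0.03 and 0.06. The shares of all features called higher and lower were 9.6% and 12.5%, 6.11% and 6.24%, and 14.8% and 20.9%. Zfp36, which encodes tristetraprolin, was at 1198 and 1293 unstimulated, 4497 and 4191 with IFNγ, 1695 and 1876 with opsonised cells, and 6129 and 6806 with both. It rose in all 3 stimulated groups, by 1.80 ± 0.11, 0.52 ± 0.11 and 2.38 ± 0.11. Its relative Zfp36l1 was at 7511 and 6973 unstimulated, 5363 and 5986 with IFNγ, 2440 and 2511 with opsonised cells, and 2053 and 2018 with both. It fell in all 3, by a log2 change of -0.35 ± 0.10, -1.55 ± 0.10 and -1.83 ± 0.10. Zc3h12a, which encodes the RNase regnase-1, rose with IFNγ (0.37 ± 0.12), and Khsrp fell with both stimuli (-0.42 ± 0.12). On adding opsonised cells to IFNγ, 1 of the 6 rose (Zfp36, 0.57 ± 0.11) and 1 fell (Zfp36l1, -1.48 ± 0.10). Of all features 6.57% were called higher and 7.62% lower there. The median of the list was -0.09, beside -0.01 over all features. The decay of transcripts was not measured, and its part in the levels of Ccl3 and Ccl4 was not tested.

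**Figure D5:**
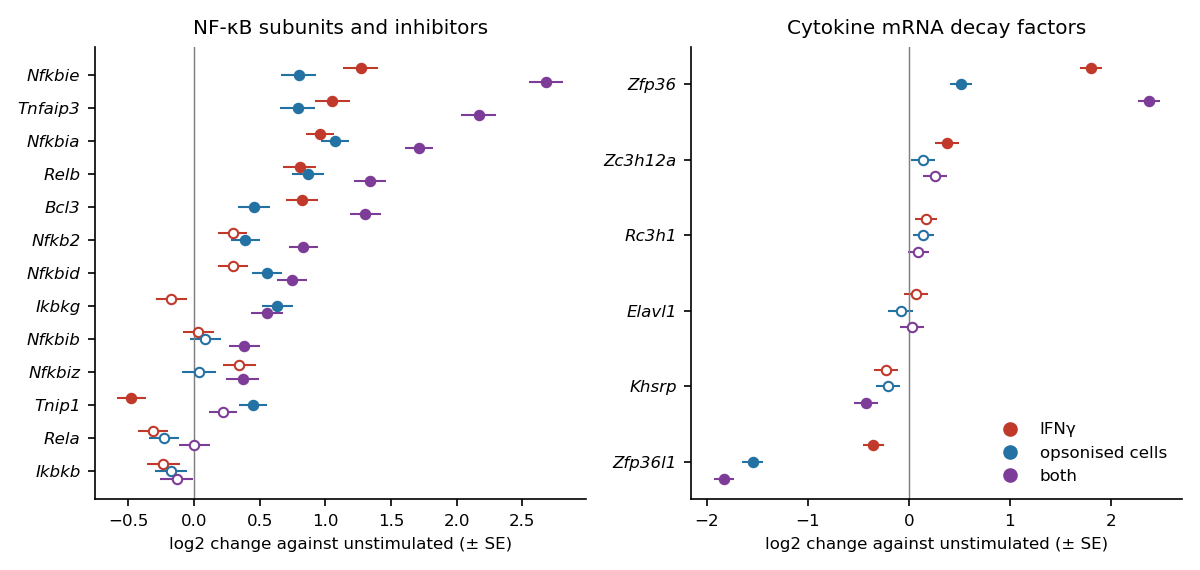
Log2 change ± SE against unstimulated cells (x axes) with IFNγ, opsonised cells and both, 2 arrays per group. Tested NF-κB subunit and inhibitor genes are on the left and those of the cytokine mRNA decay list on the right. Filled points passed the test. Nfkbie reached 2.68 with both stimuli, Zfp36 2.38 and Zfp36l1 -1.83.

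The features whose course over the 8 arrays came nearest to a member's were found by the root mean square difference of log2 intensities, each centred on its own mean. Nearest to Ccl12 were Samhd1 (0.13), the immunity-related GTPase gene Irgm2 (0.16) and the transcription factor gene Irf1 (0.16). Nearest to Ccl7 were Phf11a (0.22), the tryptophanyl-tRNA synthetase gene Wars (0.23) and the peptide transporter gene Tap1 (0.24), and to Ccl2 the IL-13 receptor gene Il13ra1 (0.14), Lacc1 (0.15) and Tgtp1 (0.18). For Ccl3 they were Pdlim4 (0.22), the phosphatase gene Dusp1 (0.23) and Gdpd1 (0.25), and for Ccl4 Fbxo34 (0.09), the co-chaperone gene Dnajb6 (0.10) and Mrpl11 (0.14). The log2 changes of Dusp1 against unstimulated cells were -1.41 (IFNγ), 0.97 (opsonised cells) and 0.05 (both). Nearest to Ccl9 were the sorting nexin gene Snx18 (0.07), Rapgef5 (0.07) and Oit3 (0.08), and to Ccl6 Sh3bgrl2 (0.11), Scoc (0.11) and the paraoxonase gene Pon2 (0.11). All arrays are shared in this measure, and a small difference is easier to reach for a gene that moves little, such as Ccl4 or Ccl9.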

How the data were processed

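The values used are intensities on a linear scale that the authors deposited, 1 column per array. They were made with GenomeStudio, per the submitters' processing notes, whose version and settings no source used here gives. The values show quantile normalization (sorted columns were within 0.961% of each other) and not background-subtracted (lowest value 119.8). A second deposited table holds 16 per-sample columns of signals and detection p-values whose names match no sample's labels, and it was not used.

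Log2 intensities were fitted with limma 3.58.1 in R 4.3.3 (lmFit with 4 group means over 8 arrays, eBayes with an intensity trend, 4 residual and 22.7 total degrees of freedom). Benjamini-Hochberg adjustment ran over all features of each of 6 contrasts, with a threshold of 0.05. Probes were kept when both arrays of at least 1 group lay above a floor, the mode of all log2 values plus 1.64 SD of those below it (201.1), which left 12149 probes (47.3%). The brightest probe stood for its gene (9227 features, 8517 with a symbol). Of 25697 probes 23978 had 1 symbol and 1719 none, and the symbols of all 10 member probes matched RefSeq's. The fit was tested on simulated data.

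Named besides the members were at most the 4 largest calls of each list in each direction and contrast, and the 3 nearest features to each member; markers, near neighbours on the chromosome and genes near the floor are named where a count refers to them. Members and lists were chosen with earlier results of these data known. Replicate numbers do not pair the arrays in any label, and sequence matches used Biopython 1.88. Alternatives were background correction, normalization, filter, probe choice, variance model, arrays fitted, the replicate block and leaving out each array.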

Additional observations from a re-analysis of the deposited data

Results flagged for a closer look

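For 2 members the change made by opsonised cells differed between macrophages with and without IFNγ by a test of that difference. Ccl3 changed by 1.40 with IFNγ and by 0.45 without it, a difference of 0.95 on the log2 scale (adjusted p = 0.00115). Ccl4 changed by 0.80 with IFNγ and by -0.14 without it, a difference also of 0.95 (adjusted p = 0.000228). Over the alternatives run, the difference ranged from 0.81 to 1.08 for Ccl3 (adjusted p from 0.00065 to 0.0147) and from 0.83 to 1.06 for Ccl4 (adjusted p from 8.95e-05 to 0.00439). Groups of 2 arrays are too small for a check of single outlying arrays.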

How the results depend on the processing

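Of 833 values of members under the alternatives, 816 kept their side of the threshold, 14 lost a call, 3 gained one and 0 called values changed sign, while 13 uncalled values did. The calls lost or gained are given with the genes above, except that Ccl4 with both stimuli against none also lost its call when centred on housekeeping genes without B2m (0.21, adjusted p = 0.127). All 7 members kept their IFNγ call under every alternative run. Leaving out 1 array at a time gave 0 to 1 members called with opsonised cells, and over all features 662 to 1188 calls with opsonised cells, 1305 to 2152 with IFNγ, 725 to 1411 for both stimuli against IFNγ and 100 to 240 for the interaction. The arrays that moved these by over 1.5 times were unstimulated replicates 1 (666) and 2 (662) with opsonised cells and IFNg replicate 2 with IFNγ (1305). For both stimuli against IFNγ they were IFNg replicates 1 (725) and 2 (802). For the interaction they were unstimulated replicates 1 (135) and 2 (100) and IFNg replicates 1 (105) and 2 (127). With fewer arrays the fit has fewer degrees of freedom, and the lone array of a group is assumed to vary like the other groups.

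The share of IFNγ calls that were higher was 43.4%, with cyclic loess 54.6% and centred on 11 housekeeping genes 30.2%. For both stimuli it was 41.4%, 51.4% and 29.3%, and for IFNγ added to opsonised cells 41.1%, 50.8% and 30.8%. Centring without B2m, chosen after seeing the data, gave 31%, 31.1% and 33% for these 3 comparisons, and the direction of every member's IFNγ change was kept under all of these scalings. With the replicate number as a block the members called were unchanged in number (7, 1, 6, 2, 7 and 2 over the 6 contrasts). Over all features same-numbered arrays did not deviate together (correlations from -0.04 to 0.0457 between pairs of groups). A small shared effect could be missed this way, so whether same-numbered arrays share an animal or culture stays unknown. The interaction was not run on fewer groups, since it needs all 4. Dim signal limits Ccl22 and most receptor genes.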
